A study of Mus musculus with 12 samples.

Results

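The three-way contacts of primed mouse embryonic stem cells were examined at 11 enhancer viewpoints, out of 23 viewpoints captured in the series. The 11 were chosen by name, and every fragment pair of their primed tables entered: cMyc, cMyc-2, Sox2-SE, Klf4-distal-SE, Dppa3-37kb, Dnmt3a-116kb, Lefty1-2, Tdgf1-Lrrc2-SE, Elovl6-SE1, Txnip-distal-SE and Malt1. Tri-C joins DNA fragments that lay close together in the nucleus: chromatin is fixed, digested by the enzyme DpnII and religated, after which capture oligonucleotides pull out the products with a viewpoint. Reporters are the other fragments of such a product from the same chromosome, and any 2 of them count as 1 three-way contact with the viewpoint. All cells were J1, a mouse embryonic stem cell line, without a genetic change named in the labels. The primed cells had been kept for a week on Geltrex with Fgf2, Activin A and Knockout Serum Replacement and without 2i, LIF and BSA, and the naive cells, used here for values side by side, had been kept with 2i and LIF. Of the 12 samples, 6 were primed, 3 biological replicates for each of 2 pools of capture oligonucleotides. Pool 1 held Dppa3-37kb, Dnmt3a-116kb, Lefty1-2, Sox2-SE, Tdgf1-Lrrc2-SE and cMyc-2, and pool 2 held the other members. A difference between viewpoints of unlike pools cannot be told apart from one between the pools. Each deposited table gives 1 count per fragment pair for the state as a whole. The replicates were therefore taken as pooled, no value has a replicate error, no test across replicates was made, and all intervals cover counting error only. The series holds no expression values, so the labelled state was not checked against marker genes.

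Enhancers can lie far from the genes they act on, and a super-enhancer is a dense cluster of them. Naive pluripotency, the state of the early epiblast, is held by factors such as Nanog, Klf4 and Sox2, while primed cells resemble the later epiblast, in which Fgf and Activin/Nodal signals maintain pluripotency and de novo DNA methylation sets in. Reporters that come from the same read tell which parts of a locus met the enhancer in 1 molecule of ligated chromatin, so contacts on the same side of the viewpoint can be set against contacts that straddle it.

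The oligonucleotides were 100 nt long and fix where each viewpoint lies in mm10. Those of Dppa3-37kb (chr6:122663539-122663638), Sox2-SE (chr3:34745994-34746093), Lefty1-2 (chr1:180888832-180888931) and Klf4-distal-SE (chr4:55475439-55475538) lay outside the RefSeq gene spans, and so did cMyc (chr15:61979284-61979383) and cMyc-2 (chr15:62010774-62010873), the only members that share a locus. They are shown, all in lower case, because the results below turn on these 6 loci, and none of them holds a DpnII site (GATC).
Dppa3-37kb: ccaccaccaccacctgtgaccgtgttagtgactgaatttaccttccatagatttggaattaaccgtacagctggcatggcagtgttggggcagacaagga
Sox2-SE: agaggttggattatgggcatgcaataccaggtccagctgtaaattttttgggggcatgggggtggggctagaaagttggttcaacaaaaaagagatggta
Lefty1-2: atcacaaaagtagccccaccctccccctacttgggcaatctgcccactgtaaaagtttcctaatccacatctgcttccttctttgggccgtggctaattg
Klf4-distal-SE: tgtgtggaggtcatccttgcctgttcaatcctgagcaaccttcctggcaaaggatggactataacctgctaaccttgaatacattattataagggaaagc
cMyc: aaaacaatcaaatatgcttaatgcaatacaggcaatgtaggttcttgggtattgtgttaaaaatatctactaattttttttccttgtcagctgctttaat
cMyc-2: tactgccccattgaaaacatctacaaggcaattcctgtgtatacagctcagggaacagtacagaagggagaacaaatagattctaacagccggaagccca
The DpnII fragments that hold cMyc and cMyc-2 were 136 and 126 bp long, and those of the other 9 viewpoints ranged from 372 (Klf4-distal-SE) to 2007 bp (Dnmt3a-116kb). Dnmt3a-116kb lay inside Dtnb, Elovl6-SE1 inside Elovl6 and Txnip-distal-SE inside Ankrd35.

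The 11 viewpoints held 106985 of the 107270 counts of all primed tables (99.7%), while the other 12 held between 3 and 74 each. Totals ran from 485 (Malt1) and 791 (Lefty1-2) to 24989 (cMyc-2) and 32749 (Dppa3-37kb), with a median of 5428. Counts lay on repeated fragment pairs for 30.4 to 51.1% of each table. At Sox2-SE, 1 pair of adjacent fragments within 1 kb of the viewpoint took 2191 counts, 16.6% of the table, and this pair lies in the viewpoint bin, which was left out of all profiles and matrices below.

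Most three-way contacts of primed cells were not purely local. Both reporters lay within 200 kb of the viewpoint in 22.3% (95% Wilson interval 21.5 to 23.03) of the counts of cMyc, the lowest share, and in 58.3% (54.8 to 61.7) of those of Lefty1-2, the highest, with a median of 40.9%. Neither reporter was that close in 23.6% (Lefty1-2) to 55.9% (cMyc). The middle of this order was not resolved. The interval of Malt1 (41.4%, 37.1 to 45.9) overlapped those of Dnmt3a-116kb (36.2%), Tdgf1-Lrrc2-SE (37.2%), Elovl6-SE1 (40.9%), Txnip-distal-SE (42.5%), Dppa3-37kb (42.7%) and Sox2-SE (45.97%), and the neighbours Dnmt3a-116kb and Tdgf1-Lrrc2-SE overlapped too. The share of Sox2-SE was 26.3% once counts with a reporter in the viewpoint bin were left out. The viewpoints of the Myc locus differed: cMyc-2, 31.5 kb from cMyc, had 32.9% (32.3 to 33.5) local counts. cMyc was captured in pool 2 and cMyc-2 in pool 1, so viewpoint and pool cannot be told apart here.

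**Figure D1:**
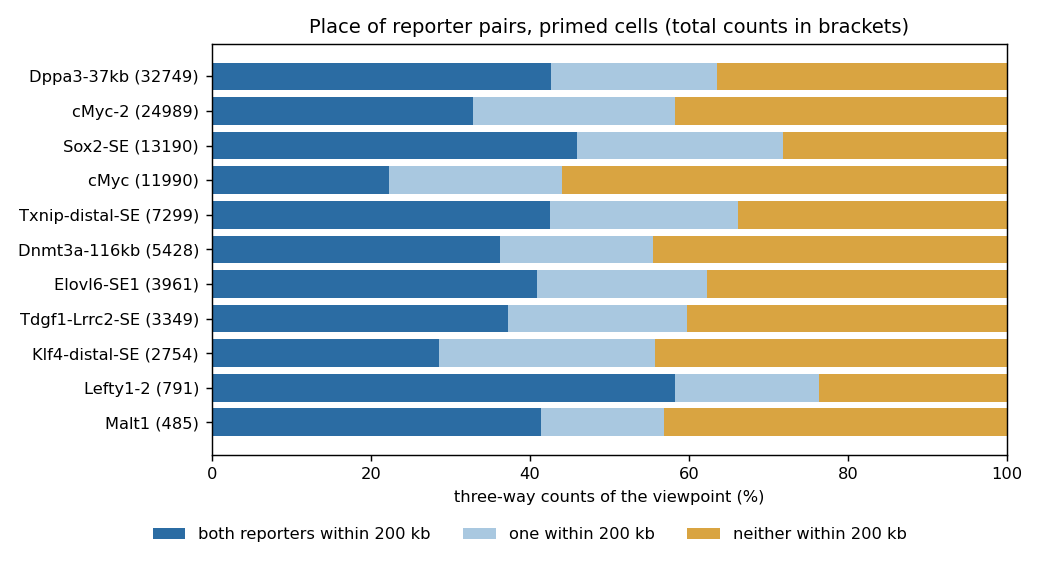
Share of three-way counts (%, horizontal axis) of each primed viewpoint (vertical axis, total counts in brackets) with both, one or neither reporter within 200 kb. The local part is widest at Lefty1-2 (58.3%) and narrowest at cMyc (22.3%).

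Reporters far from the viewpoint were still close to each other. In 13.2% (Sox2-SE) to 29.1% (Klf4-distal-SE) of all counts both reporters lay over 1 Mb away, and of these counts 48.1 to 73.7% had reporters within 10 kb of each other. Fragments that were directly adjacent on the chromosome, with only the DpnII site between them, made up 26.8% (Klf4-distal-SE) to 51.3% (Malt1) of the counts, with a median of 31.9%.

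Within 200 kb, reporters on the same side of the viewpoint were the rule at every primed viewpoint. Here upstream means lower and downstream higher coordinates, and distances were sorted into 10 kb bins centred on the viewpoint, whose own bin was left out. Opposite-side pairs were 7.75% (6.55 to 9.16) of 1625 counts at cMyc and 17.6% (16.1 to 19.3) of 2143 counts at Txnip-distal-SE. The shares of Dppa3-37kb (12.8%), Elovl6-SE1 (12.7%), Sox2-SE (13.4%), cMyc-2 (13.5%), Dnmt3a-116kb (13.8%), Klf4-distal-SE (14.6%), Tdgf1-Lrrc2-SE (15.3%) and Lefty1-2 (15.9%) lay between them. Malt1 had 9 opposite-side pairs among 164. Given the split of reporters over the sides, independent sides would put at least 43.7% of pairs across the viewpoint at each of the 11 loci.

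The split of reporters itself was uneven at some loci. Upstream reporters were 33.8% at Dppa3-37kb, 33.7% at cMyc-2 and 32.3% at Lefty1-2, but 58.1% at Txnip-distal-SE and 55.3% at Sox2-SE. The larger side was that of Sox2, Txnip, Nanog and Lefty1 at their viewpoints, but not that of Dppa3 and Gdf3 at Dppa3-37kb, of Myc at cMyc-2 or of the Elovl6 start at Elovl6-SE1 (45.1% upstream). At Klf4-distal-SE the gene lies downstream and upstream reporters were 52.4% in primed cells, beside 67.5% in naive cells. At cMyc they were 51.1% beside 28.0% in naive cells.

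A side odds ratio, which matches both reporters for their distances (Mantel-Haenszel, with a Robins-Breslow-Greenland interval), measured the odds that the second reporter was upstream when the first was, against the odds when the first was downstream. Its square root is the fold by which a same-side pair was favoured over an opposite-side pair. The 10 viewpoints with at least 200 counts within 200 kb and outside the viewpoint bin, all but Malt1, had side odds ratios from 10.8 (4.59 to 25.4) at Lefty1-2 to 54.1 (33.3 to 87.7) at cMyc, with a median of 18.7, and all 10 intervals lay above 1. The interval of cMyc overlapped that of Elovl6-SE1 (24.6, 15.6 to 38.7) and lay above those of the other 8, among them Dppa3-37kb (18.01, 16.0 to 20.3), cMyc-2 (21.6, 17.8 to 26.1) and Txnip-distal-SE (11.6, 9.29 to 14.6). For cMyc the square root was 7.35, and for Lefty1-2 it was 3.29.

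Much of the same-side preference came from reporters next to each other. Without adjacent fragments the side odds ratios ran from 3.16 (Lefty1-2) to 15.4 (cMyc), with a median of 5.34, and all 10 intervals stayed above 1. With distances at least 2 bins apart the median was 1.85 and 6 of 10 intervals lay above 1. cMyc had 3.73 (1.99 to 6.995) there, Dnmt3a-116kb 2.60 (1.59 to 4.25), Dppa3-37kb 2.53 (2.10 to 3.03), Sox2-SE 2.18 (1.37 to 3.47), cMyc-2 1.75 (1.23 to 2.48) and Txnip-distal-SE 1.63 (1.09 to 2.43). The intervals of Elovl6-SE1 (1.95, 0.979 to 3.89), Tdgf1-Lrrc2-SE (1.71, 0.897 to 3.27), Lefty1-2 (0.689, 0.170 to 2.80) and Klf4-distal-SE (0.538, 0.110 to 2.64) held 1, on 264, 87 and 85 counts for the last 3, so no preference was detectable there at this depth. With distances at least 5 bins apart, 3 of 10 intervals lay above 1, those of Dppa3-37kb (1.90, 1.499 to 2.40), cMyc (2.83, 1.27 to 6.34) and Tdgf1-Lrrc2-SE (4.22, 1.19 to 14.9). Beside the naive tables, the primed side odds ratio was 1.28 times (1.00 to 1.62) the naive one at cMyc-2, where 21.6 stood beside 16.9, and the intervals of this ratio held 1 at the other 9 viewpoints, from 0.450 (0.118 to 1.72) at Lefty1-2 to 1.44 (0.854 to 2.43) at Elovl6-SE1.

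**Figure D2:**
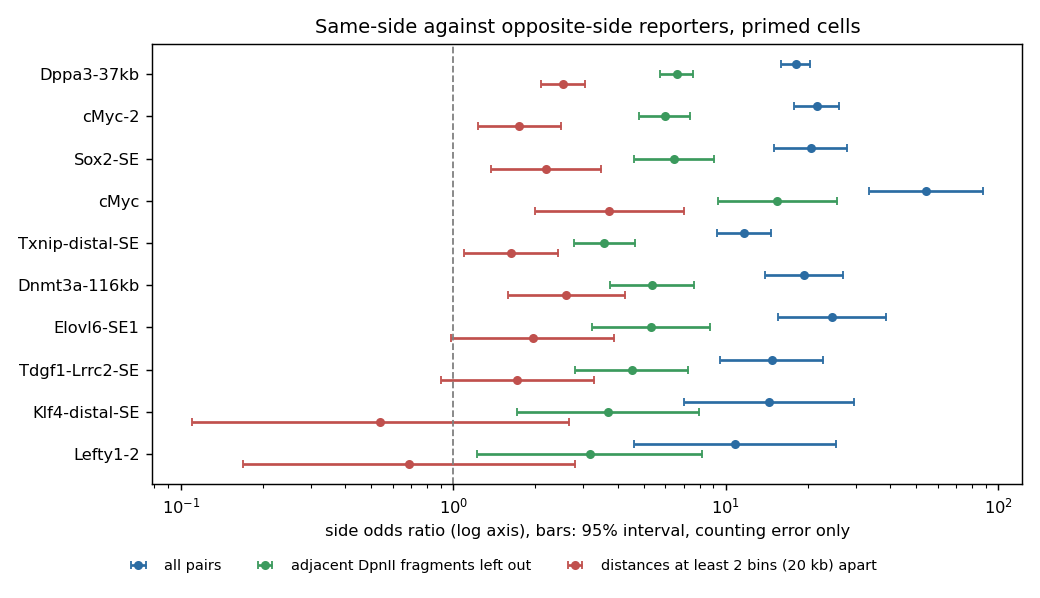
Side odds ratio (horizontal log axis) of 10 primed viewpoints (vertical axis) for all pairs, without adjacent DpnII fragments and for distances at least 2 bins apart, with 95% intervals for counting error. The values fall from a median of 18.7 to 5.34 and 1.85, and cMyc is the highest in each series.

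The reporter profile of each viewpoint, its share of reporters per bin, was set against the mean share at the same distance on either side of the other primed viewpoints with at least 1000 counts in the window outside the viewpoint bin (cMyc and cMyc-2 were not set against each other). A bin was called higher where this ratio was at least 2, its exact Poisson interval lay above 1 and at least 5 reporters were expected. In primed cells 29 of 418 bins tested were called higher (6.94%) and 90 lower (21.5%). Of the 29, 9 lay upstream and 20 downstream, and each viewpoint had at least 1. In naive cells 41 of 430 bins were called higher (9.53%), and 16 bins were called in both states, 55.2% of the primed and 39.0% of the naive calls. With each distinct fragment pair counted once 22 of the 29 calls remained, without adjacent fragments 19, and 17 remained in both. The intervals count both reporters of a pair as independent, which makes them too narrow.

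**Figure D3:**
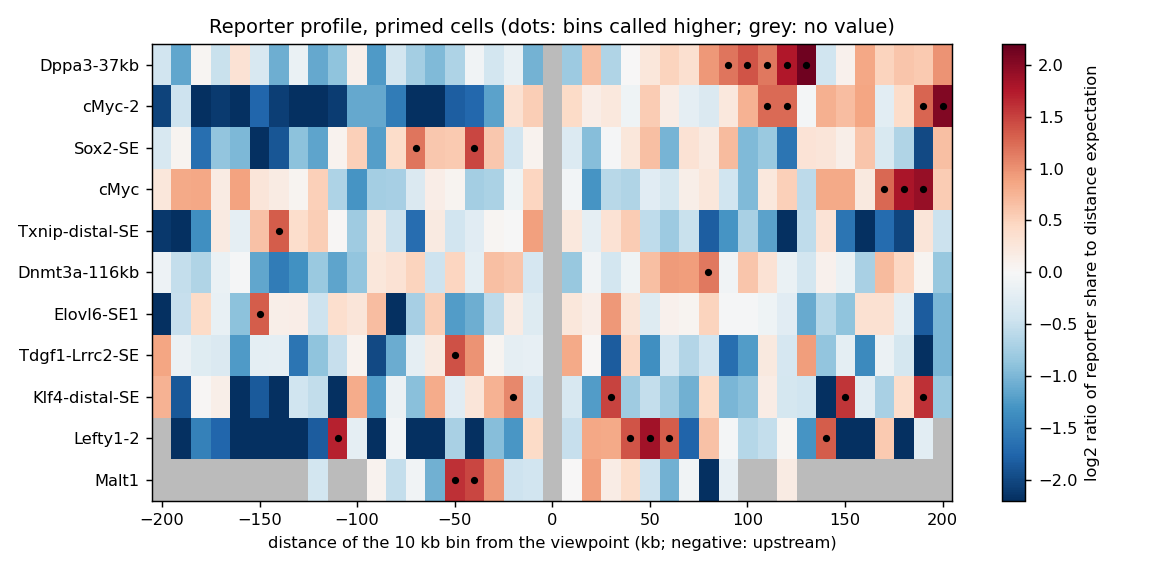
Log2 ratio of the reporter share to the distance expectation (colour, capped at both ends of the scale) for each 10 kb bin (horizontal axis, kb from the viewpoint, negative upstream) of the 11 primed viewpoints (vertical axis). Dots mark the 29 bins called higher, which form runs at 90 to 130 kb from Dppa3-37kb, 170 to 190 kb from cMyc and 40 to 60 kb from Lefty1-2.

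Whether gene starts stood out less often than other places depended on the width of the bins. Of 53 bins tested that hold the start of a protein-coding gene, 1 was called higher (1.89%, beside 6.94% of all bins) and 9 lower (17.0%, beside 21.5%). With bins of 5 kb 13.5% of gene bins were called higher, beside 10.4% of all bins, and with bins of 20 kb 6.25%, beside 5.45%. With bins of 10 kb the share of gene bins was 3.85%, beside 7.18%, with each distinct fragment pair counted once. It was 4.00%, beside 9.09%, with 1 more bin left out on each side, and 6.00%, beside 9.38%, without adjacent fragments. The median ratio of the 53 was 0.839, beside 0.870 over all bins tested. The bin called was that of Lefty1 and Tmem63a. By role, the 5 pluripotency factors had 6 values with a median of 0.949 and a range of 0.443 to 1.43, none called higher and 1 called lower, Myc from cMyc-2. The Nodal signalling genes had values for 2 of 4 members, with 1 called. The metabolic genes Elovl6, Txnip and Slc2a3 had ratios of 1.14, 1.45 and 0.739, none called. The value of Slc2a3 is that of the end of its RefSeq span and may not describe its shorter transcripts. Gene starts are the ends of the RefSeq spans of GRCm38.p6, the assembly of mm10.

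Nanog, the homeodomain factor of naive pluripotency, had its start at position 122707489 of chromosome 6, 43.9 kb downstream of Dppa3-37kb. Its bin held 585 reporters (3.01%) in primed cells and a ratio of 1.01 (0.925 to 1.09), beside 1647 reporters (5.17%) and a ratio of 1.49 (1.42 to 1.57) in naive cells. The primed ratio lay on either side of 1 under other settings, at 0.728 (0.642 to 0.822) with each distinct pair counted once, 0.829 (0.761 to 0.902) with a wider excluded region and 1.20 (1.10 to 1.32) with bins of 5 kb. The −5 enhancer of Nanog fell into the same bin. Upstream, Dppa3 (Stella, a maternal factor that guards DNA methylation in the early embryo) had 549 reporters and a ratio of 0.943 (0.866 to 1.03), beside 0.858 in naive cells. Gdf3, a ligand of the TGF-beta family, had 307 reporters and a ratio of 0.623 (0.555 to 0.697), beside 0.495. None of these 3 gene bins was called in primed cells.

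What stood out at Dppa3-37kb lay beyond Nanog. The 5 bins from 90 to 130 kb downstream, chr6:122748588-122798587, held 3887 reporters, 20.01% of the window, where 1322 were expected, and the naive share was 18.3%. Their ratios were 2.26, 2.60, 2.23, 3.39 and 4.41, the last (4.15 to 4.69) being the highest of the 29 calls. With distinct pairs counted once it was 2.75, below the bin at 120 kb (3.16) and no longer the highest call. At that setting the bin at 90 kb lost its call (1.95). All 5 lie in the RefSeq span of Slc2a3, which encodes the glucose transporter GLUT3 and runs from 122727809 to 122802363. This span joins all transcripts of the gene. In GENCODE shorter ones end well before the end of the gene's span, and their start was not placed here. Some or all of the 5 bins may therefore lie outside them. The upper end of this span, taken as the start of Slc2a3, lies 138.8 kb from the viewpoint. Its bin was not called (229 reporters, 0.739, 0.646 to 0.841), and this value may not describe the start of the shorter transcripts. The bin at 80 kb, also in the span, had 629 reporters and a ratio of 1.94 (1.79 to 2.10). It was called with each distinct pair counted once (2.08) and without adjacent fragments (3.33). The +60 enhancer of Nanog and the capture site Dppa3-139kb lie in the bin at 100 kb (634 reporters, 2.60, 2.40 to 2.81, beside 2.35 in naive cells), and a further Nanog enhancer, 148.9 kb from the viewpoint, lies in a bin that was not called (281 reporters, 1.07, 0.948 to 1.20). Foxj2, a forkhead factor gene at 156.6 kb, had 377 reporters and a ratio of 1.79 (1.62 to 1.98), below the limit of 2.

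Sox2, the partner of Oct4 in the pluripotency network, starts at position 34649995 of chromosome 3, 96.0 kb upstream of Sox2-SE, its distal super-enhancer. Its bin held 76 reporters (2.02%) with a ratio of 1.43 (1.13 to 1.79), the tenth highest of the 40 bins of this viewpoint, beside 369 reporters (5.75%) and 3.16 (2.85 to 3.50) in naive cells. The primed share was 0.351 times (0.271 to 0.451) the naive one. The bins that stood out lay between gene and enhancer: −70 kb in Sox2ot, a long non-coding RNA gene that spans Sox2 (197 reporters, 2.25, 1.95 to 2.59, beside 2.77 naive), and −40 kb in Gm3143 (272 reporters, 2.76, 2.44 to 3.11, beside 3.35 naive). Both bins were called in both states. The bin of the Sox2 start ends at 34651042, inside the gene, whose span runs to 34652461, and its value moved with the width of the bins as given below.

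Klf4, a zinc-finger factor of the naive state, starts at position 55532475 of chromosome 4, 57.0 kb downstream of Klf4-distal-SE. Its bin held 12 reporters (1.49%) with a ratio of 0.584 (0.302 to 1.02), where naive cells had 62 reporters (5.70%) and 2.74 (2.10 to 3.51). This was the lowest primed share over naive among the target genes, 0.261 (0.128 to 0.488). A bin 30 kb downstream, between viewpoint and gene, showed the other order with 93 reporters (11.5%) and a ratio of 2.82 (2.27 to 3.45), beside 0.289 in naive cells. It rested on 27 distinct fragment pairs and its ratio was 1.67 with each pair counted once. The bins at 150 and 190 kb (32 and 22 reporters, 2.96 and 3.04) and at −20 kb (112 reporters, 2.07) were also called. The bin at −20 kb lost its call with each pair counted once (1.86) and without adjacent fragments (1.69), and the bins at 150 kb (1.72) and 190 kb (2.71) lost theirs without adjacent fragments. Klf4 was the nearest coding start to the 3 bins of highest ratio.

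The Lefty genes encode antagonists of Nodal. Lefty1 starts at position 180935022 of chromosome 1, 46.1 kb downstream of Lefty1-2, in a bin with 59 reporters (8.99%) and a ratio of 3.59 (2.74 to 4.63), the highest of this viewpoint. It was 2.72 (2.05 to 3.53) in naive cells from 56 reporters, and the ratio stayed between 2.93 and 4.69 under all 6 alternatives. It was the 1 target gene called with bins of 10 kb, and with bins of 5 kb Dnmt3a, Txnip and Malt1 were called as well. Tmem63a, which encodes a mechanosensitive channel, starts in the same bin. With its neighbours at 40 kb (51 reporters, 2.60) and 60 kb (42 reporters, 2.52) the run chr1:180923881-180953880 held 152 reporters, 23.2% of the window, beside 24.2% in naive cells. The capture site Lefty1 of the series lies in the bin at 40 kb. The bins at −110 and 140 kb (28 and 25 reporters) were called on 7 distinct pairs each and had ratios of 1.78 and 1.34 with each pair counted once. The start of Lefty2, 4.23 kb away, falls into the viewpoint bin and has no value. The same holds for Tdgf1 (Cripto, the co-receptor of Nodal) and Lrrc2 at Tdgf1-Lrrc2-SE. There the bin at −50 kb in Als2cl was called (121 reporters, 2.65, 2.197 to 3.16), beside 1.12 in naive cells.

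Elovl6, an elongase of fatty acid synthesis, starts at position 129532386 of chromosome 3, 19.6 kb upstream of the enhancer in its own gene. Its bin held 165 reporters (7.46%) with a ratio of 1.14 (0.969 to 1.32), beside 686 (13.5%) and 2.22 (2.05 to 2.39) in naive cells. The primed ratio was 0.698 (0.524 to 0.911) without adjacent fragments and 0.731 (0.633 to 0.840) with bins of 20 kb. The bin called at −150 kb (69 reporters, 2.51, 1.95 to 3.17, beside 0.441) rested on 14 distinct pairs and was at 1.04 with each counted once. Txnip, the thioredoxin-interacting protein that restrains glucose uptake, starts at position 96557957 of chromosome 3, 120.9 kb upstream of Txnip-distal-SE. It had 103 reporters (2.40%) and 1.45 (1.18 to 1.76), the fifth highest of 40 bins, beside 2.41 (2.12 to 2.73) in naive cells, and a primed ratio of 0.964 (0.724 to 1.26) without adjacent fragments. The bin at −140 kb, 19.1 kb beyond the start of Txnip, was called in both states (145 reporters, 2.53, 2.13 to 2.98, beside 2.53 naive).

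Dnmt3a encodes a de novo DNA methyltransferase. Its RefSeq span begins at position 3801559 of chromosome 12, 109.4 kb downstream of Dnmt3a-116kb, in a bin of 53 reporters (1.68%) and a ratio of 1.25 (0.933 to 1.63), beside 1.00 (0.785 to 1.25) in naive cells. The promoter table places further starts of Dnmt3a at 115.0 and 199.6 kb, where the ratios were 0.906 (0.668 to 1.20) and 0.558 (0.288 to 0.9753). The bin called at this viewpoint lay at 80 kb in Dtnb, 112 reporters and 2.24 (1.85 to 2.70), beside 2.201 in naive cells. The start of Dtnb, which encodes dystrobrevin beta, had 30 reporters and 0.566 (0.382 to 0.808).

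Myc, the growth regulator, starts at position 61985341 of chromosome 15, 6.01 kb downstream of cMyc and 25.5 kb upstream of cMyc-2. From cMyc its bin held 340 reporters (10.5%) and 0.954 (0.855 to 1.06), beside 1.23 in naive cells. From cMyc-2 it held 209 (1.97%) and 0.443 (0.385 to 0.508), beside 0.651, but the primed ratio was 0.749 with bins of 5 kb and 1.32 (1.26 to 1.38) with bins of 20 kb, so its direction depends on the bins. With all reporters as the denominator Myc from cMyc was at 0.465 (0.426 to 0.507) and the start of Pvt1 from cMyc at 0.465 (0.382 to 0.560). The start of Pvt1, a long non-coding RNA gene downstream of Myc, had 0.762 (0.590 to 0.967) from cMyc, beside 2.09 in naive cells, and 1.17 (1.08 to 1.27) from cMyc-2, beside 1.41. From cMyc-2 its primed ratio turned to 0.855 (0.757 to 0.963) with bins of 5 kb and was 0.994 with each distinct pair counted once. The calls of both viewpoints lay deep in Pvt1. From cMyc they were the bins at 170, 180 and 190 kb with 76, 81 and 82 reporters and ratios of 2.40, 3.49 and 3.76, beside 3.34, 4.01 and 5.43 in naive cells. From cMyc-2 they were 110 and 120 kb (322 and 372 reporters, 2.36 and 2.38) and 190 and 200 kb (173 and 235 reporters, 2.43 and 4.09), beside 1.88, 1.65, 2.65 and 2.64 in naive cells. The bin at 120 kb lost its call with each distinct pair counted once (1.95) and without adjacent fragments (1.84). From cMyc the bin at 170 kb lost its call without adjacent fragments (1.999). The run of cMyc was chr15:62144333-62174332 and those of cMyc-2 were chr15:62115823-62135822 and chr15:62195823-62215822, of which the last lies outside the window of cMyc. The runs of cMyc and cMyc-2 do not overlap. Neither the run of cMyc nor the first run of cMyc-2 was called from the other viewpoint.

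The reporters of each viewpoint were also sorted by whether they lay upstream or downstream of both. These regions begin at different distances from cMyc and cMyc-2, so values are compared only between the states of 1 viewpoint. At cMyc, 52.1% (50.7 to 53.4) of 5236 primed reporters lay upstream of both and 34.4% downstream, beside 30.2 and 53.3% in naive cells. At cMyc-2, 9.04% (8.60 to 9.49) of 16055 lay upstream and 65.3% downstream, beside 6.41 and 61.7%. These sets of reporters are larger than those of the profile. The profile leaves out pairs with a reporter in the viewpoint bin and holds 1625 pairs at cMyc and 5310 at cMyc-2. The bin of cMyc-2 seen from cMyc was not called (95 reporters, 0.658, 0.533 to 0.805), and the bin of cMyc seen from cMyc-2, which also holds the Myc start, was called lower (0.443).

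Malt1 (a paracaspase of immune signalling) and Alpk2 (an alpha-kinase) flank the viewpoint with the fewest counts, on chromosome 18. The Malt1 bin had 39 reporters and 1.00 (0.713 to 1.37), the Alpk2 bin 16 and 0.730 (0.417 to 1.19). The bins at −50 and −40 kb in Alpk2 were called with 25 and 27 reporters (3.05 and 2.76), and only 20 bins of this viewpoint could be tested. Without adjacent fragments these bins had ratios of 3.77 and 5.20, and neither passed the calling rule.

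**Figure D4:**
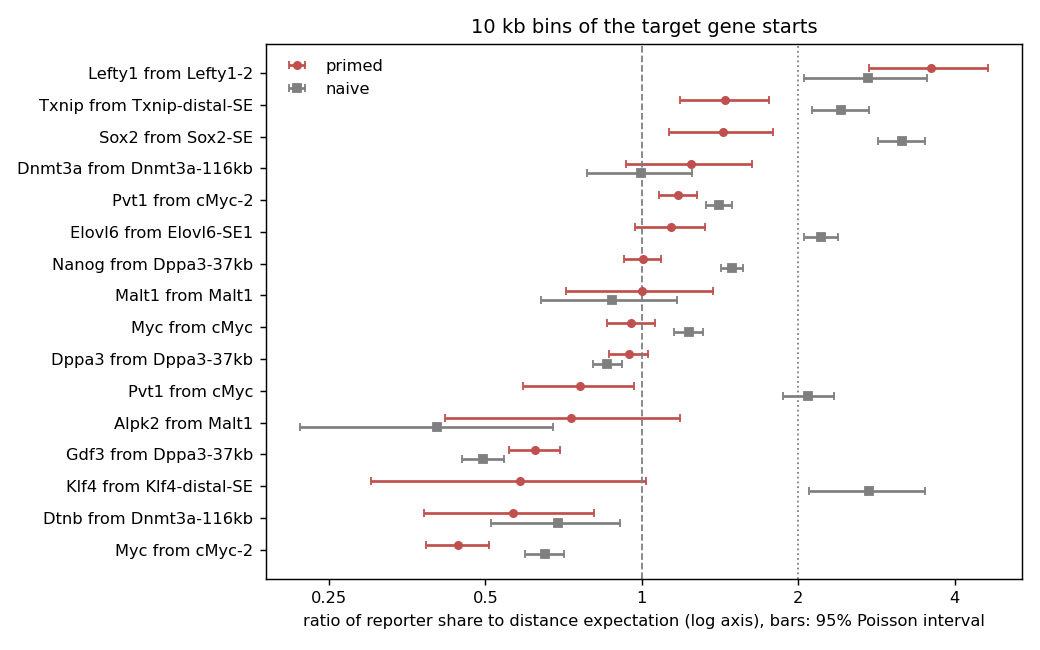
Ratio of the reporter share to the distance expectation (horizontal log axis) in the bin of each target gene start (vertical axis), primed and naive, with 95% Poisson intervals. Lefty1 at 3.59 is past the limit of 2 (dotted line) in primed cells, and Sox2, Klf4, Txnip, Elovl6, Pvt1 from cMyc and Lefty1 are past it in naive cells.

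Over the 16 target values, 1 was called in primed cells, where 6.94% of all bins were, and 6 in naive cells, where 9.53% of all bins were. The primed share is near its background. The intervals of the primed and naive ratios did not overlap for Nanog, Elovl6, Klf4, Sox2, Txnip, Myc from both viewpoints and Pvt1 from both, each lower in primed cells, and for Gdf3, which was higher. The primed over naive share of Gdf3 itself was 1.13 (0.977 to 1.31), an interval that holds 1. These are 9 and 1 of 16 values, beside 14.4% of all bins tested with the primed interval below the naive one and 20.3% with it above. Such intervals leave out the spread between replicates. Bins of 5 kb moved several values by over 1.5 times: Sox2 to 0.105 (0.0216 to 0.307), Dppa3 to 0.481 and Gdf3 to 0.282, but Dnmt3a to 2.44, Txnip to 2.33 and Malt1 to 2.196, which with Lefty1 (2.93) made 4 targets called. Klf4 moved to 0.883 (0.456 to 1.54) with each distinct pair counted once, and Dtnb to 0.369 (0.263 to 0.502) with bins of 20 kb.

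How finely a gene start can be seen is set by its DpnII fragment. The fragment over the Nanog start was 344 bp long and had 50 primed counts, that over Elovl6 194 bp and 5 counts, and that over Sox2 1547 bp and 3 counts, beside 104, 62 and 20 in naive cells. These counts were not scaled for depth. The whole naive tables of these viewpoints held 41081, 7726 and 15441 counts, beside 32749, 3961 and 13190 in primed cells. The 250 bases before the starts of Nanog, Elovl6 and Sox2, from RefSeq on the strand of the gene, are chr6:122707239-122707488, chr3:129532136-129532385 and chr3:34649745-34649994 (all on the plus strand of GRCm38.p6). They are shown for their cut sites, GATC in capitals, of which the Nanog promoter holds 2, the Elovl6 promoter 1 and the Sox2 promoter 0. The sequence GATC reads the same on both strands, and 41.9% of the 32851 promoters of the table hold it in this stretch.
Nanog: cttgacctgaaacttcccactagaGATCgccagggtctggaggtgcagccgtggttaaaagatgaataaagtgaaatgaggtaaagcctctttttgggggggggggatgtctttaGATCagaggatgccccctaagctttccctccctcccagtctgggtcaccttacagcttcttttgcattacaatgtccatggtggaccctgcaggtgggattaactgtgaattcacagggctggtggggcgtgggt
Elovl6: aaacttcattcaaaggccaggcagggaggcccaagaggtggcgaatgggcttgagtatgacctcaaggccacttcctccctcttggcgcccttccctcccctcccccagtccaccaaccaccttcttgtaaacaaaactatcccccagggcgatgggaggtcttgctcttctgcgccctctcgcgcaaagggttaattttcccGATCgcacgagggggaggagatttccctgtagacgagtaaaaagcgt
Sox2: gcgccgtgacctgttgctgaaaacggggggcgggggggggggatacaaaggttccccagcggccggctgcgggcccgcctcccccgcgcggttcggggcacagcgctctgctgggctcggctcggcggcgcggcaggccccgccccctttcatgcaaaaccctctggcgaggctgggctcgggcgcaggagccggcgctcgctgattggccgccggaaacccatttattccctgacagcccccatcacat

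Bin pairs were compared with the product of both bins' reporters within their class of separation and side at the 7 viewpoints with at least 1000 counts in the window outside the viewpoint bin. A pair was called where it had at least 2 times the expected count, an interval above 1 and an expectation of at least 3. Of 810 pairs tested 126 were called (15.6%), but 87 of these were a bin with itself and 16 a bin with its neighbour. Within a bin, 61.4% of all counts were found, and there the ratio ran against the bin's own number of reporters at every viewpoint (Spearman's rho across bins −0.759 to −0.941, a description). The expectation grows with the square of the reporters, so bins with few reporters pass more readily by construction, and these calls describe the rule. At the 6 viewpoints with called pairs of at least 20 counts, the 3 of highest ratio were a bin with itself or its neighbour, such as a bin in Rimklb with itself, 200 kb upstream of Dppa3-37kb (32 counts, 8.31).

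At least 2 bins apart, 23 of 527 pairs were called (4.36%): 13 of 261 at Dppa3-37kb, 8 of 119 at cMyc-2, 1 of 38 at Sox2-SE and 1 of 49 at Txnip-distal-SE. None was called of 33 at Dnmt3a-116kb, 13 at Elovl6-SE1 and 14 at cMyc, too few to set against the other viewpoints. Of the 23, 7 straddled the viewpoint, out of 211 opposite-side pairs tested. With an expectation from such distant pairs alone, 13 of 535 were called (2.43%), of which 9 were among the 23, 6 of them at cMyc-2 and 2 at Dppa3-37kb. Of the most counts among the 23 at Dppa3-37kb were the pairs at 10 and 80 kb (36 counts on 15 distinct pairs, 2.1997, 1.54 to 3.05), 80 and 120 kb (24 on 21, 2.01, 1.29 to 2.98) and, across the viewpoint, −10 and 30 kb (21 on 17, 2.08, 1.29 to 3.18), which were not called with the expectation from distant pairs. Called under both were the bins at 90 and 140 kb from Dppa3-37kb, both in the RefSeq span of Slc2a3 (14 counts on 8 distinct pairs, 3.30 expected, 4.24, 2.32 to 7.11, beside 0.964 in naive cells). The bins at −20 and 140 kb, on either side, had 11 counts (3.16 expected, 3.48, 1.74 to 6.22, beside 3.46 in naive cells) and were called in both states.

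At cMyc-2 the distant pairs called lay mostly within Pvt1. The pair at 70 and 110 kb had 12 counts on 7 distinct fragment pairs (3.95, 2.04 to 6.90), the pair at 100 and 120 kb 15 on 11 (2.80, 1.57 to 4.62), and the pair at 50 and 120 kb 13 on 7 (2.35, 1.25 to 4.01). The 19 counts at 70 and 100 kb and the 14 at 90 and 110 kb each came from 1 fragment pair. The bin at −20 kb, which holds most of Myc apart from its start, was called with the bins at 190 kb (12 counts, 2.37, 1.23 to 4.15) and 80 kb (10 counts, 2.16, 1.03 to 3.96) in Pvt1, across the viewpoint. The call at 80 kb was lost with the expectation from distant pairs, and so was that of −150 with −20 kb (8 counts, 2.35). At Sox2-SE the bins at −60 and −30 kb were called on 9 counts (2.81, 1.28 to 5.33).

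Pairs of named elements were few. At Dppa3-37kb the bin of Nanog and its −5 enhancer was seen with the +60 bin in 9 counts where 7.73 were expected (1.16, 0.532 to 2.21), beside 52 counts and 1.67 in naive cells. The +60 bin with the bin at 120 kb had 32 counts on 25 distinct pairs, above the expectation of 19.5 but below the limit of 2 (1.64, 1.12 to 2.32), beside 1.52 in naive cells. Nanog with the bin at 130 kb, the highest of the profile, had 1 count where 9.11 were expected (0.110, 0.00278 to 0.611), beside 9 and 0.597. Nanog with Dppa3, on either side of the viewpoint, had 10 counts (1.79, 0.859 to 3.29), and Dppa3 with the bin at 110 kb had 8 (2.44, 1.06 to 4.82) and was the 1 pair of these 3 target genes that was called, though not under the expectation from distant pairs alone. From cMyc, Myc with cMyc-2 had 5 counts where 5.36 were expected (0.933, 0.303 to 2.18). At these numbers only large departures from the expectation could be seen.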

How the data were processed

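Tri-C of J1 cells was analysed from 46 deposited tables, 1 for each of 23 viewpoints and 2 states. The authors cut chromatin with DpnII, ran CapCruncher (capture mode, mm10) and took reads with 2 or more cis reporters by scripts of their own. For version, aligner and duplicate treatment, the answer is not given in the sources used here. All deposited values are whole-number counts of reporter fragment pairs, without normalization and without a replicate. Each table was assigned by its state and pool to the groups of the labels, and its 3 replicates were taken as pooled. A read with more than 2 reporters adds more than 1 pair, and copies made by PCR are not separate molecules.

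Software was Python 3.11.15, numpy 2.4.6, scipy 1.17.1, pandas 2.3.3 and matplotlib 3.10.9. Fragments were placed by midpoint into bins of 10 kb centred on the oligonucleotide, 20 on each side. The functions were tested on simulated data. Gene spans and promoters came from RefSeq (GRCm38.p6), strands from its promoter table or by symbol from GENCODE, and 758 genes without a strand were left out. The promoter table held 9 of the 17 target genes. The genome sequence at hand was of another build and was not used.

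The members, gene lists and tests were chosen with earlier results of these data known. Named were the target genes, coding genes with a start in a called bin, the nearest start to the 3 highest called bins, called bin pairs of the highest ratio with at least 20 counts, and other capture sites or Nanog enhancers by position. Pairs and values named beside these were chosen after their values were seen. Alternatives changed the weight of repeated pairs, bin width, excluded region, window, expectation, threshold and denominator. One further gene of the metabolic list is not reported here.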

Additional observations from a re-analysis of the deposited data

How the results depend on the processing

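No paired analysis was possible because each state has 1 table per viewpoint with replicates undivided, so none could be left out either. The side odds ratio had an interval above 1 at 10 of 10 viewpoints under 6 alternatives (repeated pairs counted once, bins of 5 or 20 kb, a wider excluded region, a window of 500 kb, adjacent fragments left out). Its size was less stable. The median, 18.7 as reported, was 10.5 with repeated pairs counted once and 34.1 with a wider excluded region. With repeated pairs counted once Dppa3-37kb fell to 8.79 (7.59 to 10.2) and cMyc-2 to 7.95 (6.40 to 9.87). Without distance strata, another measure, the expected over the observed opposite-side share, was 2.76 to 6.45 with 10 of 10 intervals above 1. The count for the odds ratio fell to 8 of 10 with reporters in the same distance bin left out, where Klf4-distal-SE had 0.802, and to 6 with adjacent distance bins left out too, where Klf4-distal-SE had 0.538 and Lefty1-2 0.689. Bins called higher numbered 80 of 766 with bins of 5 kb, 12 of 220 with bins of 20 kb and 9 of 418 at a ratio of at least 3, beside 29. Gene bins called were 7 of 52 and 3 of 48 with these bin widths, beside 1 of 53 as reported. They were 2 of 52 with repeated pairs counted once, 2 of 50 with a wider excluded region and 3 of 50 without adjacent fragments. In this order the shares were 13.5, 6.25, 3.85, 4.00 and 6.00%, beside 10.4, 5.45, 7.18, 9.09 and 9.38% of all bins. Target genes called were 4 with bins of 5 kb, beside 1. Bin pairs called, 126 of 810 as reported, numbered 64 of 718 with repeated pairs counted once, 189 of 994 and 70 of 503 with bins of 5 and 20 kb, 112 of 1093 against the mean of their class, 78 of 607 with a wider excluded region, 54 of 810 at a ratio of at least 3, 54 of 739 without adjacent fragments, 23 of 527 at least 2 bins apart and 13 of 535 with an expectation from those alone. The median local share, 40.9%, was 30.4% with repeated pairs counted once, 49.8% in a window of 500 kb and 32.5% without the viewpoint bin. Leaving out adjacent fragments, the same distance bin, near bin pairs or bins on under 10 distinct pairs, and the expectation from distant pairs, were chosen after seeing the data. Depth limits single bins at Malt1, Lefty1-2 and Klf4-distal-SE and single bin pairs everywhere.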
